A study of Homo sapiens with 6 samples.

Results

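The ELAVL, CPEB and NOVA genes encode 3 families of RNA-binding proteins, and their 10 members were followed by name in a table of 18056 genes from human forebrain organoids. The families were chosen by measured values of the comparison described here. ELAVL4 and CPEB2 had been among the genes with the smallest p-values for a lower level with amyloid-β peptide Aβ42, and the other 8 members were added as their relatives. All 10 were listed in the table and all 10 passed the filter on low counts, among 13842 genes tested. DYR0100, a wild-type line of induced pluripotent stem cells in established use, was the source of the organoids, which followed a dorsal forebrain protocol. In 3 libraries they had received vehicle and in 3 libraries 5 µM Aβ42, the aggregation-prone peptide cut from the amyloid precursor protein, for 6 days. Every library came from this 1 line and the labels give 1 batch, so the groups stand for 1 genetic background. The design text calls the replicates independent and does not say how many organoids each held. Each library held 16465390 to 16742958 counts.

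ELAVL proteins, also called Hu proteins, bind uridine-rich and AU-rich stretches of messenger RNA, protect many transcripts from decay and alter splicing. ELAVL1 (HuR) is made in most cells, whereas ELAVL2 (HuB), ELAVL3 (HuC) and ELAVL4 (HuD) are largely neuronal and mark cells from the time they leave the cell cycle. CPEB proteins bind a uridine-rich element in the 3′ untranslated region and control the length of the poly(A) tail and translation, in germ cells and at synapses. NOVA proteins bind RNA through KH domains and direct neuron-specific exon choice. Hu and NOVA proteins were first recognised as targets of antibodies in paraneoplastic neurological disease.

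In vehicle organoids the members spanned a wide range of levels, compared here as TPM, transcript counts scaled for gene length and library size. ELAVL3 was highest at 197.7 ± 1.72 TPM (mean ± SD, n = 3), above 94.6% of the tested genes. ELAVL2 followed at 110.8 ± 10.2 TPM and ELAVL4 at 99.3 ± 2.65 TPM. ELAVL1, the ubiquitous family member, was at 71.4 ± 2.13 TPM. NOVA2 stood at 67.0 ± 1.29 TPM, CPEB4 at 62.7 ± 2.81 TPM and CPEB2 at 56.8 ± 3.96 TPM. The lower end held NOVA1 at 30.6 ± 0.690 TPM, CPEB3 at 17.3 ± 1.54 TPM and CPEB1 at 4.06 ± 0.475 TPM. The ranges over the 3 vehicle libraries did not overlap between neighbours in this order, except for CPEB4 (59.4 to 64.4 TPM) and CPEB2 (53.9 to 61.3 TPM), which did not differ beyond their spread. ELAVL2 (102.2 to 122.0 TPM) and ELAVL4 (96.6 to 101.8 TPM) were separated by less than 1 TPM at their nearest libraries. The 3 neuronal ELAVL genes thus each lay above ELAVL1 in every vehicle library.

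**Figure D1:**
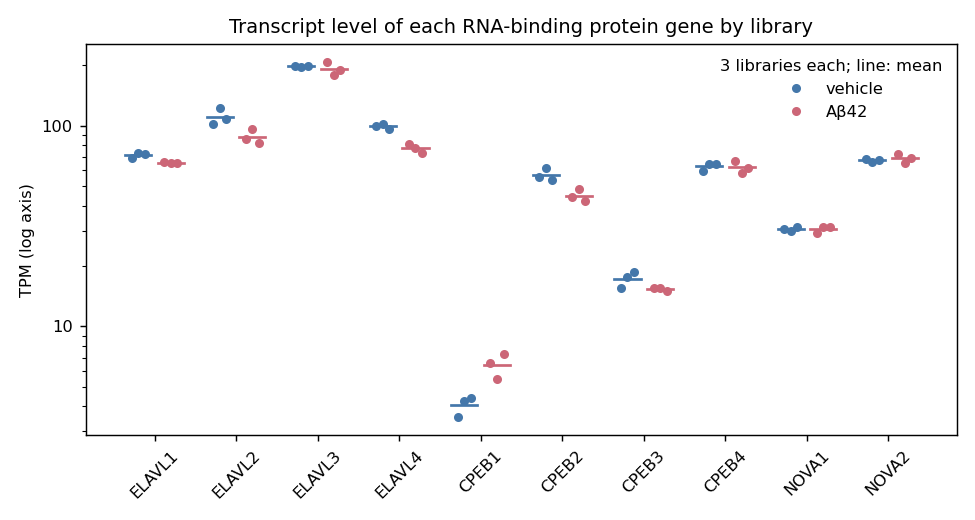
Transcript level (TPM, logarithmic axis) of the 10 genes in each of the 3 vehicle and 3 Aβ42 libraries, with a short line at each group mean. The Aβ42 points of ELAVL1, ELAVL2, ELAVL4, CPEB2 and CPEB3 lie below all vehicle points and those of CPEB1 above them.

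ELAVL4 (Entrez gene ID 1996) lies on the plus strand of chromosome 1 at 50048014 to 50203786 (GRCh38, GENCODE v29). Levels per library are given in replicate order as CPM, the counts scaled by library size and TMM factor, which do not allow for gene length. The vehicle libraries had 145.9, 146.6 and 138.7 CPM of ELAVL4 and the Aβ42 libraries 121.5, 114.1 and 111.1 CPM. Every Aβ42 library was below every vehicle library. In bulk tissue fewer cells of a type and less RNA per cell cannot be told apart. The log2 fold change was -0.31 ± 0.05 (SE), a level 19.6% lower. ELAVL2 (1993), the paralogue closest to it in protein sequence, lies on chromosome 9 at 23690104 to 23826337 on the minus strand. It was at 151.7, 177.3 and 158.9 CPM without the peptide and 129.7, 143.5 and 126.3 CPM with Aβ42. These groups did not overlap either, with vehicle replicate 2 the highest of its group and Aβ42 replicate 2 the highest of the other, and the log2 fold change was -0.29 ± 0.07. ELAVL1 (1994; chromosome 19, 7958579 to 8005659, minus strand) was at 165.6, 171.3 and 170.9 CPM without the peptide and 160.1, 157.7 and 161.2 CPM with Aβ42. Its groups were also separate, by a smaller margin, with a log2 fold change of -0.08 ± 0.04. ELAVL3 (1995; chromosome 19, 11451326 to 11481046, minus strand) had 366.8, 353.0 and 362.8 CPM without the peptide and 388.9, 331.0 and 361.4 CPM with Aβ42. The Aβ42 values lay on both sides of the vehicle values, and the log2 fold change was -0.0017 ± 0.06. Its sign turned when vehicle replicate 1 (0.01), vehicle replicate 3 (0.0032) or Aβ42 replicate 2 (0.06) was left out.

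CPEB2 (132864) lies on the plus strand of chromosome 4 at 15002674 to 15070153. The vehicle libraries had 120.7, 132.0 and 119.3 CPM and the Aβ42 libraries 97.0, 102.2 and 95.7 CPM. The groups did not overlap, and replicate 2 was the highest library of each. The log2 fold change was -0.34 ± 0.05, a level 20.7% lower. CPEB1 (64506; chromosome 15, 82543201 to 82648861, minus strand), the founding member known from oocyte maturation, was the only one of the 10 with all Aβ42 libraries above all vehicle libraries. It had 4.21, 4.74 and 5.24 CPM without the peptide and 8.04, 6.53 and 8.88 CPM with Aβ42, a log2 fold change of 0.72 ± 0.16. These levels rest on 70 to 148 counts per library, the fewest among the members. Of the annotated exonic bases of CPEB1, 29.8% are shared with the antisense gene CPEB1-AS1 or with a second protein-coding gene model on the same strand, and whether counting used strand is not given in the sources used here. The level of CPEB1 is therefore uncertain. The shared part was 7.59% for ELAVL1, 5.38% for ELAVL3 and 1.95% for CPEB2, and 0 for the other 6.

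CPEB3 (22849; chromosome 10, 92046692 to 92291087, minus strand) was at 41.0, 45.4 and 47.1 CPM without the peptide and 40.6, 40.6 and 41.4 CPM with Aβ42. Vehicle replicate 1 lay below Aβ42 replicate 3, so the groups overlapped in CPM, while in TPM they did not (lowest vehicle value 15.6, highest Aβ42 value 15.5). The TPM scale itself ran lower with Aβ42, with a median log2 difference of -0.04 over all tested genes. In the main fit that median was 0.0032. The log2 fold change of CPEB3 was -0.12 ± 0.07, and it was -0.08 without vehicle replicate 3 and -0.18 without vehicle replicate 1. Its count was not whole in Aβ42 replicate 3 (691.2), the only such value among the members. CPEB4 (80315; chromosome 5, 173888280 to 173961976, plus strand) had 190.3, 200.9 and 204.3 CPM without the peptide and 216.7, 188.0 and 206.7 CPM with Aβ42. Both the highest and the lowest of these 6 values came from Aβ42 libraries, and the log2 fold change was 0.04 ± 0.06.

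NOVA1 (4857; chromosome 14, 26443093 to 26597754, minus strand) was at 53.8, 51.1 and 53.5 CPM without the peptide and 53.9, 52.1 and 51.5 CPM with Aβ42, a log2 fold change of -0.0083 ± 0.06. NOVA2 (4858; chromosome 19, 45933734 to 45973546, minus strand), the form most abundant in neocortex, was at 222.0, 209.2 and 217.5 CPM without the peptide and 238.2, 213.7 and 232.8 CPM with Aβ42. The groups overlapped in both genes, and the log2 fold change of NOVA2 was 0.08 ± 0.05. It was 0.05 without Aβ42 replicate 1 and 0.12 without Aβ42 replicate 2. Both act on splicing, which counts per gene do not show.

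**Figure D2:**
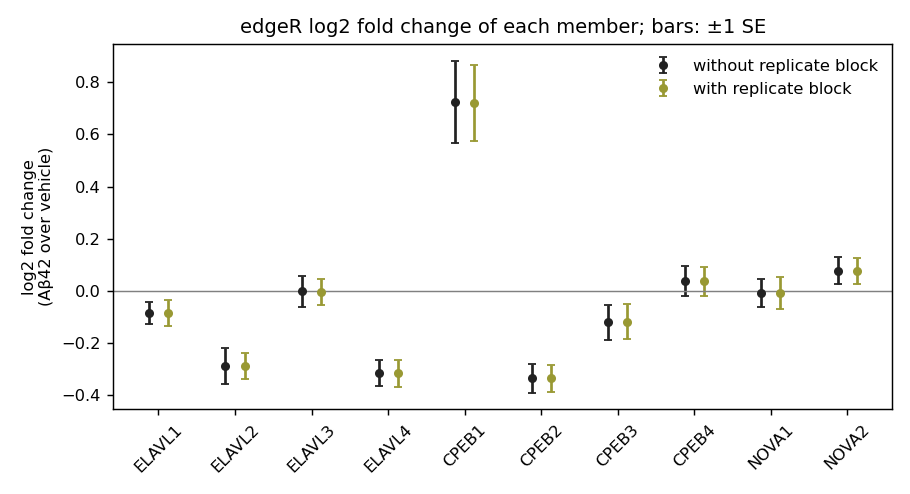
The log2 fold change of Aβ42 over vehicle for each gene, by edgeR without (black) and with (olive) the replicate number as a block, with bars of 1 SE on each side. ELAVL2, ELAVL4 and CPEB2 lie between -0.34 and -0.29, CPEB1 lies at 0.72 and the other 6 between -0.12 and 0.08.

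With edgeR's quasi-likelihood test and no block, 0 of the 10 members had an adjusted p-value under 0.05, beside 0% of all 13842 genes. Unadjusted p-values were under 0.05 for 3302 genes, 4 of them members, and DESeq2's Wald test called 804 genes, again with 4 members. The values that chose ELAVL4 and CPEB2 were their ranks by p-value, 1 and 3 among genes lower with Aβ42, at an adjusted p-value of 0.0684 each. The adjusted values of CPEB1 and ELAVL2 were 0.0712 and 0.0734. Those of the other 6 members ran from 0.260 for ELAVL1 to 0.988 for ELAVL3. Because this contrast chose the families, these values describe the members and test nothing about them.

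With the replicate number as a block, a pairing that the labels do not give and the data do not settle, 4 members were called. ELAVL2, ELAVL4 and CPEB2 were called lower (adjusted p-values 0.0017, 0.00099 and 0.00071) and CPEB1 higher (0.0039). The same fit called 7.05% of all tested genes lower and 7.12% higher. The 4 genes were the same without Aβ42 replicate 2, with adjusted p-values of 0.0027, 0.0020, 0.00095 and 0.0022 in that order, and leaving out any other single library called none. Over the 12 alternatives the adjusted p-value of ELAVL2 ran from 0.0017 to 0.296, that of ELAVL4 from 0.00050 to 0.296, that of CPEB2 from 0.00050 to 0.296 and that of CPEB1 from 0.0022 to 0.296. Without Aβ42 replicate 2 the test called 3224 of 13960 genes in all. By separation of the groups, 4 members were lower and 1 higher, against 13.4% and 13.6% of all tested genes. Over the members 7 log2 fold changes were below 0 and 3 above, with a median of -0.05, while over all genes 49.3% were below 0 and the median was 0.0032. Nothing is read from these counts, since the contrast chose the families.

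**Figure D3:**
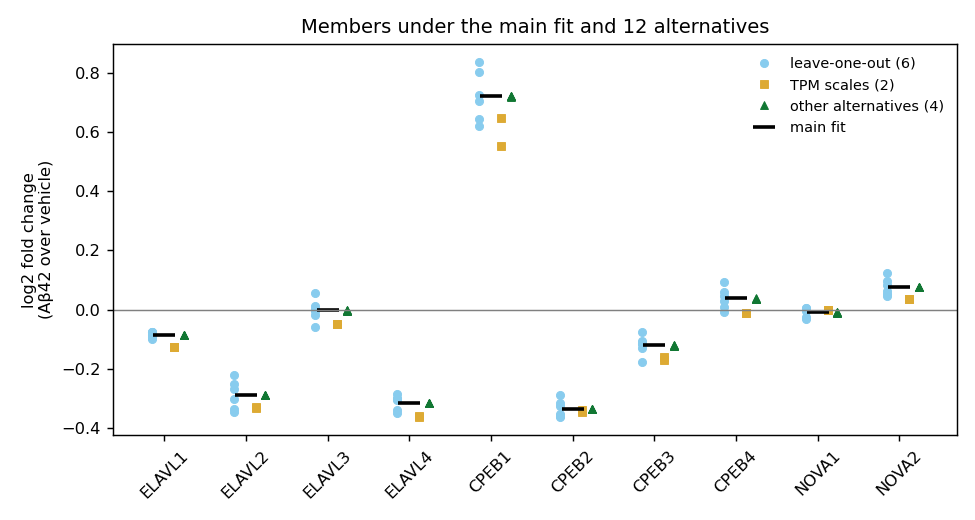
The log2 fold change of each gene in the main fit (black dash), in 6 fits with a library omitted (blue circles), on the 2 TPM scales (yellow squares) and in the other 4 alternatives (green triangles). ELAVL4 stayed between -0.37 and -0.29, CPEB2 between -0.36 and -0.29 and CPEB1 between 0.55 and 0.84, while the points of ELAVL3, CPEB4 and NOVA1 lie on both sides of 0.

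Levels relative to a paralogue were compared on the TPM scale and are given as a description. The ratio of ELAVL4 to ELAVL3 was 0.502, 0.520 and 0.485 without the peptide and 0.391, 0.435 and 0.385 with it, with no overlap. For ELAVL2 to ELAVL3 the vehicle ratios were 0.514, 0.623 and 0.544 and the Aβ42 ratios 0.413, 0.539 and 0.432, where Aβ42 replicate 2 lay above vehicle replicate 1. For CPEB2 to CPEB4 the vehicle ratios were 0.931, 0.955 and 0.836 and the Aβ42 ratios 0.660, 0.826 and 0.679. Aβ42 replicate 2 came close to vehicle replicate 3 here without reaching it. ELAVL4 made up 20.3% to 21.2% of the summed ELAVL family level in vehicle and 17.8% to 18.6% with Aβ42. The summed level itself was 469.4 to 492.7 TPM in vehicle and 408.1 to 441.0 TPM with Aβ42. On the TPM scale the median log2 difference over all tested genes was -0.04, and the sum is not corrected for it. CPEB1 stayed a minor part of its family, at 2.63% to 3.12% in vehicle and 4.27% to 5.80% with Aβ42. In the NOVA family the share of NOVA1 was 30.9% to 31.8% in vehicle and 28.7% to 32.6% with Aβ42, and these ranges overlapped.

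**Figure D4:**
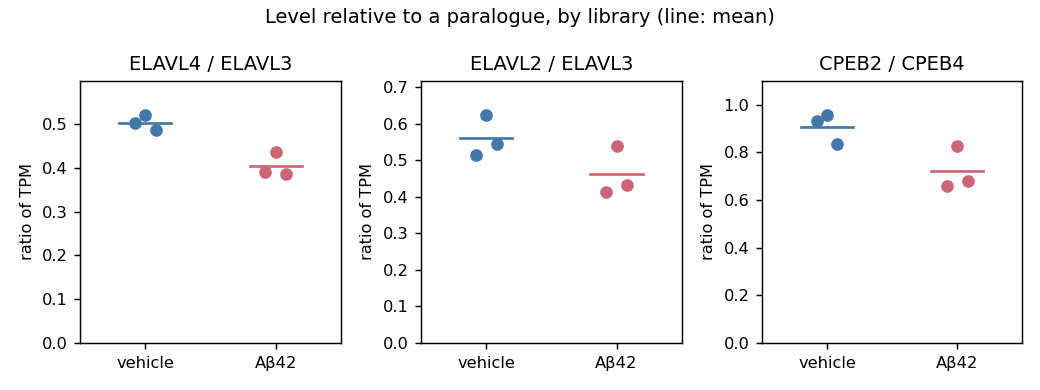
The ratio of TPM values of ELAVL4 to ELAVL3, ELAVL2 to ELAVL3 and CPEB2 to CPEB4 in each vehicle and Aβ42 library, on axes from 0, with a line at each group mean. The groups are separate for ELAVL4 to ELAVL3 and for CPEB2 to CPEB4 and overlap for ELAVL2 to ELAVL3.

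Likeness in protein sequence within each family is given as a description, since the members were chosen by family. Proteins translated from the principal GENCODE transcripts were aligned in pairs, and ELAVL2 (359 residues) and ELAVL4 (380 residues) were identical at 90.3% of the shorter sequence. ELAVL3 (367 residues) was 82.3% identical to ELAVL4 and 81.9% to ELAVL2, and ELAVL1 (326 residues) 70.2% to 74.2% identical to the 3 neuronal proteins. CPEB2, CPEB3 and CPEB4 were 60.0% to 63.8% identical to each other over their full length, and 95.5% to 96.4% over the last 220 residues, the end that holds the RNA-binding domains. CPEB1 was 42.3% to 43.2% identical to the others over that end. NOVA1 and NOVA2 were 75.4% identical. CPEB2 and CPEB4 thus had nearly the same C-terminal sequence while their log2 fold changes were -0.34 and 0.04, and ELAVL4 and ELAVL3, at 82.3% identity, stood at -0.31 and -0.0017.

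The stretches of promoter below are shown for the 4 members that were called with the replicate block, so that their upstream sequences can be set side by side. Each is the 250 bases before the first start that RefSeq lists for the gene (GRCh38.p14), 5′ to 3′ on the gene's own strand. The windows are chr1:50109583-50109832 (plus strand) for ELAVL4, chr9:23826241-23826490 (minus strand) for ELAVL2, chr4:15002231-15002480 (plus strand) for CPEB2 and chr15:82648796-82649045 (minus strand) for CPEB1. Capitals mark E-boxes (CANNTG, the site type bound by neurogenic basic helix-loop-helix factors) and GC boxes (GGGCGG), both searched on both strands. Of the 10 members, 8 had an entry, and ELAVL1 and ELAVL3 did not.
ELAVL4: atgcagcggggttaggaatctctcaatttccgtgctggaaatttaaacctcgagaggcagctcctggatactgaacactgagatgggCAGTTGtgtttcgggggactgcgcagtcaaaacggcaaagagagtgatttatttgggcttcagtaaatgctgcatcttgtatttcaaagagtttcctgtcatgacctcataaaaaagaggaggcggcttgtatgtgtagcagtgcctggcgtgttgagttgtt
ELAVL2: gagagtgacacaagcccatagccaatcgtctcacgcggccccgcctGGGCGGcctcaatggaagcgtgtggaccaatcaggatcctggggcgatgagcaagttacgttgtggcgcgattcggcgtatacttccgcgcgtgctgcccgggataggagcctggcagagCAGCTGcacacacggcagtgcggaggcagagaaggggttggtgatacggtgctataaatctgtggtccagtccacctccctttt
CPEB2: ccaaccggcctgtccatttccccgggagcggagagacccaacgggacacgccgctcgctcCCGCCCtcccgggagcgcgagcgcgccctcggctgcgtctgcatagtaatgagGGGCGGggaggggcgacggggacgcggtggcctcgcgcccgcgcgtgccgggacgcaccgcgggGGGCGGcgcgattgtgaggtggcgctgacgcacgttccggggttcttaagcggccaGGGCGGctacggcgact
CPEB1: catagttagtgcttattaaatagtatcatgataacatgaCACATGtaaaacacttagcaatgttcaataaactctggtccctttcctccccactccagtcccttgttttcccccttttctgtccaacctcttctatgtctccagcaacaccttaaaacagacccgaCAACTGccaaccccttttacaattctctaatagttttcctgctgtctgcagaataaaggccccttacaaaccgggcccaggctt

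No motif of either kind was shared by all 4 windows. ELAVL4 held 1 E-box and no GC box at 46.8% G and C bases, and ELAVL2 held 1 of each at 60.4%. CPEB2 held 4 GC boxes and no E-box at 74.8%, and CPEB1 held 2 E-boxes and no GC box at 43.2%. Among members not called, the first listed window held 1 GC box in CPEB3, 3 in NOVA1 and 2 in NOVA2. None of these windows held an E-box, and that of CPEB4 held 2 E-boxes and no GC box. Over the first listed windows of 27305 genes, 62.2% held an E-box and 42.3% a GC box, and the median share of G and C bases was 58.0%. RefSeq lists 7 starts for ELAVL4, 6 for ELAVL2, 4 for CPEB1 and 1 for CPEB2, and the table of counts does not tell which start was used. The motif counts above hold for the first listed start only. For CPEB1 the windows listed as 2, 3 and 4 held 4, 3 and 3 GC boxes, at 71.6%, 78.8% and 74.0% G and C bases. For ELAVL2 those listed as 4, 5 and 6 held 2, 4 and 2 GC boxes. For ELAVL4 those listed as 3, 5 and 6 held 3, 2 and 2 E-boxes, and those listed as 2, 4 and 7 held none. A match of letters does not show binding.

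Most members have long 3′ untranslated regions, the part of the transcript that ELAVL and CPEB proteins themselves bind. In the longest annotated form the region was 3773 bases in CPEB2, 5520 in CPEB3, 5839 in CPEB4 and 6129 in NOVA2, against a median of 1437 bases over 13511 tested genes with a coding transcript in GENCODE. It was 4904 bases in ELAVL1, 2453 in ELAVL2, 3200 in ELAVL3, 2608 in ELAVL4, 2071 in NOVA1 and 1389 in CPEB1. The letters TTTTAT, the core of the element that CPEB proteins recognise, occurred 18 times in CPEB2, more often than in 99.2% of those genes, 14 times in CPEB3 and 15 times in CPEB4. ELAVL1 held 9, ELAVL2 held 7, ELAVL4 held 4, NOVA1 held 3 and CPEB1 held 1, while ELAVL3 and NOVA2 held 0. The letters ATTTA, the core of AU-rich elements, occurred 9 times in ELAVL4, 16 times in ELAVL2, 13 times in ELAVL1 and 14 times in CPEB2, against a median of 2. ELAVL3 held 9 of them, NOVA1 and CPEB3 held 12 each, CPEB1 held 4 and NOVA2 held 1. The log2 fold changes of ELAVL3 and NOVA1 were -0.0017 and -0.0083. CPEB4 held 22 ATTTA and 15 TTTTAT and had a log2 fold change of 0.04. A longer region has more room for either motif, and binding was not measured.

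Fold change ran with transcript length over the whole table, and that trend lies beside the members' values. By the longest coding transcript, the median log2 fold change was 0.04 over the 3380 shortest genes (177 to 2274 bases), 0.02 from 2275 to 3555 bases, -0.0061 from 3556 to 5410 bases and -0.03 from 5411 bases up. ELAVL2 (3805 bases) and ELAVL4 (3966 bases) belong to the bin from 3556 to 5410 bases, and CPEB2 (6878 bases) and CPEB4 (9483 bases) to the longest. The former also holds NOVA1 (3912 bases), ELAVL3 (4729 bases) and CPEB1 (4882 bases). ELAVL1 (6015 bases), CPEB3 (7664 bases) and NOVA2 (7803 bases) are in the longest too. The differences of ELAVL2, ELAVL4 and CPEB2 were larger than the median of their bin, and the part of length in them was not tested.

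Other RNA-binding proteins of the nervous system were followed in lists, each described by its counts and median. Of 21 splicing regulators 13 were lower and 8 higher with Aβ42, with a median log2 fold change of -0.03. Over all tested genes the block called 7.05% lower and 7.12% higher, the background for this and all later lists. Of these regulators none was called without the block, and with it 4 were called lower and 1 higher. CELF5, which binds GU-rich RNA, had the smallest p-value among those lower (126.0 ± 7.96 to 106.8 ± 5.41 CPM, log2 fold change -0.24 ± 0.06). MBNL2, a muscleblind splicing factor, had the smallest among those higher (0.30 ± 0.10). RBFOX3, the antigen NeuN of mature neurons, was at 19.2 ± 1.84 and 20.6 ± 1.68 CPM (0.10 ± 0.10). Of 29 tested cytoplasmic RNA-binding proteins 18 were lower and 11 higher, with a median of -0.04, and the block called 2 lower and 0 higher. TIA1, a stress granule protein that also binds uridine-rich RNA, had a log2 fold change of -0.26 ± 0.08, and FXR1, a relative of the fragile X protein, one of 0.15 ± 0.05. With the block CELF5, MBNL2 and TIA1 were called, at adjusted p-values of 0.0061, 0.0197 and 0.0129. Without Aβ42 replicate 3 the value of TIA1 was -0.18, and that of RBFOX3 ran from 0.05 without vehicle replicate 2 to 0.18 without vehicle replicate 1.

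The partners of CPEB proteins in cytoplasmic polyadenylation were followed as well. Of 22 such genes 9 were lower and 13 higher with a median of 0.03, and with the block 0 were called lower and 3 higher. TOB1, which links CPEB3 to deadenylation, was at 34.5 ± 1.44 and 40.9 ± 2.73 CPM (0.24 ± 0.07). DDX6, an RNA helicase of repressed messenger ribonucleoprotein, was at 541.6 ± 12.6 and 490.1 ± 28.6 CPM (-0.14 ± 0.05). With the block TOB1 was called, at an adjusted p-value of 0.0259.

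Transcripts reported elsewhere as targets differed in both directions. Of 13 reported ELAVL targets 5 were lower and 8 higher, with a median of 0.05, and the block called 1 lower and 3 higher. GAP43, a growth cone protein whose messenger RNA is stabilised by ELAVL4, was at 292.0 ± 1.31 CPM without the peptide and 260.5 ± 19.9 CPM with Aβ42 (log2 fold change -0.16 ± 0.06). CDKN1A, the cell cycle inhibitor p21 and a target of ELAVL1 and ELAVL4, was at 130.8 ± 2.73 and 185.5 ± 21.3 CPM (0.50 ± 0.08). MAPT and APP, both reported to be bound by ELAVL4, had log2 fold changes of 0.05 ± 0.05 and 0.10 ± 0.05. That of MAPT ran from 0.02 without Aβ42 replicate 1 to 0.11 without Aβ42 replicate 2, and that of APP was 0.06 without Aβ42 replicate 3. Of 15 reported CPEB targets 8 were lower and 7 higher with a median of -0.04, and the block called 2 lower and 0 higher. CCNB1, the mitotic cyclin whose translation CPEB1 controls, had a log2 fold change of -0.64 ± 0.17, and MYC one of 0.33 ± 0.15, which was 0.16 without vehicle replicate 2. Of 10 genes with reported NOVA-regulated exons 5 were lower and 5 higher with a median of 0.02, and the block called 0 lower and 2 higher. AGRN, a synapse-organising protein, stood at 0.16 ± 0.06 and CACNA1B, a presynaptic calcium channel, at -0.11 ± 0.08. Leaving out vehicle replicate 2 gave CACNA1B a value of -0.05, and leaving out Aβ42 replicate 3 one of -0.06. With the block GAP43, CDKN1A, CCNB1 and AGRN were called, at adjusted p-values of 0.0449, 0.00031, 0.00087 and 0.0420.

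**Figure D5:**
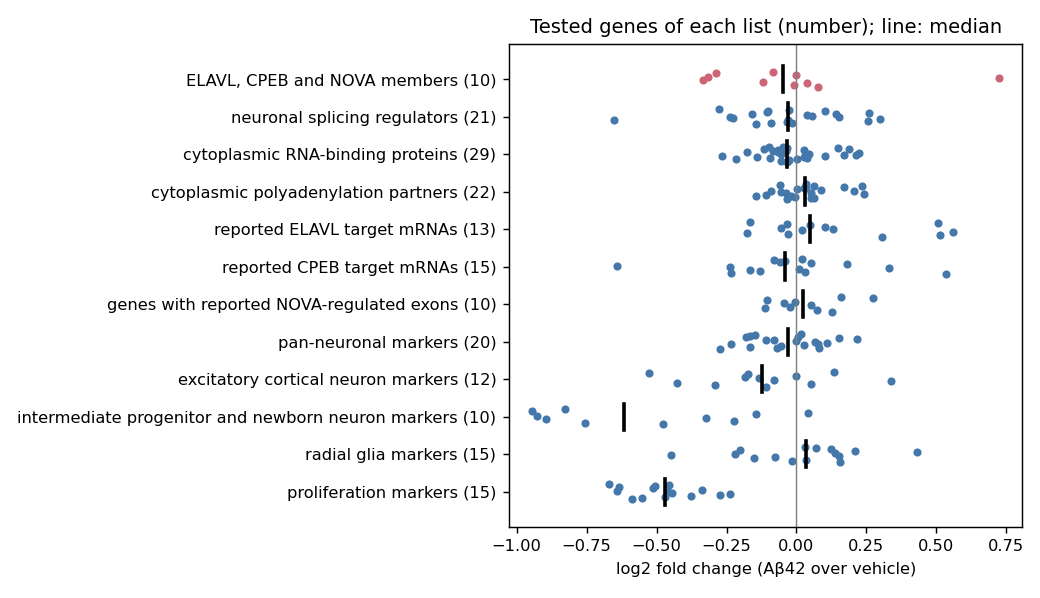
The log2 fold change of Aβ42 over vehicle for each tested gene of the 10 members (red) and of 11 gene lists (blue), with the number of genes and a line at the median. Medians of the lists of RNA-binding proteins, partners and targets lie between -0.04 and 0.05, and those of intermediate progenitor and proliferation markers lie at -0.62 and -0.47.

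Because ELAVL2, ELAVL3 and ELAVL4 are made in neurons, markers of cell types are given beside them. Of 20 pan-neuronal markers 11 were lower and 9 higher, with a median log2 fold change of -0.03. Their summed level was 11994 to 12681 TPM in vehicle and 11453 to 11725 TPM with Aβ42. The TPM scale itself ran lower with Aβ42, with a median log2 difference of -0.04 over all tested genes. These and the following sums are not corrected for it. Among the pan-neuronal markers NSG1 had a log2 fold change of -0.27 ± 0.06 and SNAP25 one of 0.15 ± 0.06. Of 12 excitatory cortical neuron markers 9 were lower (median -0.12), and their summed level was 1919 to 1982 TPM and 1774 to 1837 TPM. TBR1, the deep-layer transcription factor, stood at -0.18 ± 0.04 and FEZF2 at 0.34 ± 0.17. Intermediate progenitor and newborn neuron markers, for cells between radial glia and mature neurons, were lower in 9 of 10 genes with a median of -0.62 and summed levels of 349.5 to 398.0 TPM and 244.8 to 299.2 TPM. PPP1R17 stood at -0.90 ± 0.16 and NEUROG2 at 0.04 ± 0.07. All 15 proliferation markers were lower (median -0.47, CENPE -0.51 ± 0.08), with summed levels of 613.7 to 736.0 TPM and 392.3 to 563.6 TPM. Radial glia markers had a median of 0.03 (9 of 15 higher, FABP7 0.14 ± 0.05, HOPX -0.45 ± 0.13). The block called 5 pan-neuronal, 4 excitatory, 7 progenitor, 3 radial glia and 13 proliferation markers lower, beside 7.05% of all tested genes. Of these lists it called 1 gene higher, beside 7.12% of all tested genes. This was FEZF2 (adjusted p-value 0.0056), whose value was 0.17 without Aβ42 replicate 1 and 0.22 without vehicle replicate 2. NSG1, TBR1, PPP1R17, HOPX and CENPE were among those called lower. The pan-neuronal, excitatory, progenitor and proliferation sums did not overlap between groups. Neither did those of the splicing regulators (2080 to 2166 TPM in vehicle, 1917 to 2003 TPM with Aβ42). The cytoplasmic RNA-binding proteins (3442.5 to 3551.1 TPM, 3234.0 to 3422.1 TPM) and oligodendrocyte lineage markers (5.47 to 6.53 TPM, 4.66 to 5.12 TPM) were separate too. Of single tested genes, 13.4% were lower without overlap in CPM. The part of the cell type markers in the values of ELAVL2, ELAVL4 and CPEB2 was not tested.

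Markers of other lineages are given by their counts and sums. Astrocyte markers had a median of -0.60 (7 of 9 lower, S100B -1.25 ± 0.35, ALDH1L1 0.33 ± 0.12) and sums of 261.1 to 326.9 TPM in vehicle and 193.2 to 262.9 TPM with Aβ42. Choroid plexus markers had a median of -0.48 (6 of 7 lower, OTX2 -0.66 ± 0.56, AQP1 0.59 ± 0.57) and sums of 3349 to 7575 TPM and 2840 to 6666 TPM, which overlapped. With the block 4 astrocyte and 2 choroid plexus markers were called lower and none higher. These were S100B among the former (adjusted p-value 0.00094) and OTX2 (-0.72 ± 0.15, 0.0061) and CLIC6 (-0.58 ± 0.08, 0.00031) as the latter, CLIC6 being named after its values were seen. Their part in the values of the members was not tested. Without the block OTX2 ran from -1.39 without Aβ42 replicate 2 to -0.28 without vehicle replicate 2, and AQP1 from 0.08 without Aβ42 replicate 2 to 0.92 without Aβ42 replicate 3. Inhibitory neuron markers summed to 24.7 to 41.2 TPM and 32.7 to 44.2 TPM, with 5 of 6 tested genes higher (median 0.41, DLX2 0.64 ± 0.45, CALB2 -0.21 ± 0.14). Oligodendrocyte lineage markers summed to at most 6.53 TPM (median -0.28 over 4 tested genes, MBP 0.06 ± 0.37) and mesenchymal and vascular markers to at most 40.0 TPM (median -0.20 over 6, CLDN5 -0.74 ± 0.35, PDGFRB 0.18 ± 0.08). The block called 1 mesenchymal or vascular marker lower, DCN (-1.15, adjusted p-value 2.3e-06, named after its values were seen), and no inhibitory or oligodendrocyte marker. DLX2 ran from 0.27 without vehicle replicate 2 to 1.24 without vehicle replicate 3, CALB2 was -0.11 without vehicle replicate 1 and CLDN5 was -0.29 without vehicle replicate 2. Pluripotency markers reached at most 4.13 TPM, with 1 of 5 tested (0.03) and TDGF1 at 0 in every library. No microglia marker had enough counts to test, their sum was at most 1.27 TPM, and C1QA, C1QB, C1QC, TREM2 and TYROBP were at 0 in every library.

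Across the 6 libraries, genes were ranked by the likeness of their pattern to those of ELAVL4 and CPEB2, by Pearson correlation of log2 CPM among 10288 genes with a mean of at least 10 CPM. Among the 3 closest to ELAVL4 were UBR2 (0.986), a ubiquitin ligase, and NDUFB5 (0.985), a subunit of respiratory complex I. Their log2 fold changes were -0.07 and -0.08, against -0.31 for ELAVL4, so the shape matched and the size did not. The closest to CPEB2 were SPIN1 (0.997), CD24 (0.995), a surface glycoprotein of immature neurons, and DPP9 (0.992), a peptidase, with log2 fold changes of -0.13, -0.29 and -0.19. With 6 points that share libraries and treatment, and this many candidates, such values are a description only.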

How the data were processed

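RNA was poly(A)-selected and libraries were stranded and PCR-amplified, per the labels' protocols. FastQC, STAR 2.7.11b, featureCounts 2.0.6 and GRCh38 are named, per the submitters' processing notes. The annotation, the strand setting and the program behind the TPM values are not given in the sources used here. The authors deposited a read count per gene and library, of which 86.9% to 87.5% were whole numbers, so these were handled as estimated counts and rounded. The deposited TPM values, scaled per gene length by the authors, are relative within each library. Totals were 16465390 to 16742958 counts.

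Genes were kept with filterByExpr (13842), scaled by TMM and compared with edgeR 4.0.16's quasi-likelihood test (robust, no block, R 4.3.3), two-sided, Benjamini-Hochberg adjusted over all genes, threshold 0.05. SE is the log2 fold change divided by the root of F. Alternatives used RLE scaling, no filter, DESeq2 1.42.0, the replicate block, limma 3.58.1 on log2(TPM + 1) and log2(TPM + 0.1), and leaving out each library. The fits were checked on simulated data with differences larger than that of any member. This check does not show how reliable the calls here are. Libraries differed by more than sampling noise (chi-square per gene 3.16 to 21.1), and all 6 were kept. The design text calls the replicates independent, but the labels do not say that they came from separate cultures. The p-values therefore measure only the spread between these libraries, which may be technical.

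Deviations from group means correlated at 0.181, 0.388 and 0.129 between libraries of the same replicate number (12186 genes). The replicate number was used as a block in an alternative fit, a choice that did not depend on these values. Libraries of different numbers were not compared in this way, so the values cannot decide whether the numbers mark pairs. The labels do not give such a pairing, and every call with the block rests on it. The members, the 18 lists (237 further genes, some in 2 lists) and the tests were chosen with earlier results of these data known. Named were all members, for each list with at least 3 tested genes the lowest p-value among genes higher and among genes lower, and 5 further genes (GAP43, CDKN1A, RBFOX3, MAPT and APP), with the 3 nearest patterns to ELAVL4 and CPEB2. Of the genes this rule names, 2 are not reported here. Promoters come from RefSeq (GRCh38.p14) and transcripts from GENCODE v29. Proteins were aligned with Biopython 1.88 (BLOSUM62).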

Additional observations from a re-analysis of the deposited data

How the results depend on the processing

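No gene, member or listed gene was called with RLE scaling or on either TPM scale (3289, 3301 and 3287 genes at an unadjusted p-value under 0.05). Of the listed genes 210 passed the filter on low counts. With no such filter 360 of 17374 genes were called, 4 of them members and 9 of them in the lists. DESeq2's Wald test gave 804, 4 and 29, and the replicate block 1962, 4 and 56, each among 13842 genes tested. The cause was not tested. Leaving out one library gave 0 to 3224 genes, 0 to 4 members and 0 to 75 listed genes. Calls came only without Aβ42 replicate 2, where 13960 genes were tested. The 4 members were ELAVL2, ELAVL4, CPEB1 and CPEB2 each time, and the block changed no other member's call. Members with separate groups numbered 5 in the main fit, where 13.4% of all tested genes were separate and lower and 13.6% separate and higher. They numbered 5 to 7 in the fits tried. The 7 came without Aβ42 replicate 2, where 5170 genes had an unadjusted p-value under 0.05, against 3302 in the main edgeR fit. The share over all genes was not counted for the alternatives, so nothing is read from these numbers. ELAVL4 had rank 3 of the members in vehicle by TPM and rank 6 by CPM, which is not scaled for length.

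Among the genes named, signs turned for 5, each under 0.1 in size in the main fit. CPEB4 was at -0.0120 and -0.0122 on the TPM scales and ran from -0.0072 to 0.093 when single libraries were left out, ELAVL3 from -0.059 to 0.056 and NOVA1 from -0.031 to 0.0060. NEUROG2 was at -0.0079 and -0.0080 on the TPM scales and ran from -0.0053 to 0.10. MBP, at 0.06 ± 0.37 in the main fit and under 1 CPM in both groups, was at -0.054 and -0.12 and ran from -0.16 to 0.47. Depth limits CPEB1 most, at 70 to 148 counts per library, while the other members had at least 667.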

Other observations

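The ratio of the deposited count to the deposited TPM value gives, up to a factor per library, the length the authors' program used for a gene. Scaled to the median gene of each library and to the gene's own mean, this length was not constant. For NOVA1 it was 1.028, 1.017 and 1.007 in the vehicle libraries and 1.059, 0.960 and 0.930 in the Aβ42 libraries, in replicate order, a range of 12.9% that exceeded that of 94.0% of 11812 genes. CPEB2 had a range of 6.16% and CPEB1 one of 5.84%, against a median of 1.68%. ELAVL1, ELAVL2 and ELAVL3 stayed within 0.643%, CPEB4 within 0.842%, NOVA2 within 1.08%, ELAVL4 within 1.39% and CPEB3 within 3.64%. For NOVA1 the 3 Aβ42 libraries spanned the vehicle values on both sides, so this measure did not separate the groups.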
